A study of Homo sapiens with 12 samples.

Results

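Axon guidance ligands and receptors were described in Daoy cells, an established human medulloblastoma line, across 12 single-colour arrays. The members are the ephrins and their Eph receptors, the semaphorins with their plexin and neuropilin receptors, the slits with their ROBO receptors, and the netrins with DCC and the UNC5 receptors. The rule chose them by gene symbol and used no measured value, though it was set with earlier results of these data known, and 68 genes of the 27708 on the array met the rule, through 95 probes. The cells were kept in astrocyte conditioned medium (ACM) or in control DMEM for 1 passage (P1) or 3 passages (P3), each passage lasting 48 h, with 3 arrays for each of the 4 combinations of medium and passage. ACM was the culture supernatant of hippocampal astrocytes from newborn Sprague Dawley rats, and both the astrocyte cultures and the Daoy cultures of either medium held fetal bovine serum, so the groups differ in medium or passage and share the cell line and the serum. The series describes independent experiments but does not say which arrays belong to the same experiment, and p-values then measure the spread between these arrays of 1 cell line. The arrays measure RNA, not protein or receptor signalling.

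Guidance ligands steer growing axons and migrating cells by binding receptors on the cell surface, which attract or repel the leading edge through the cytoskeleton. Ephrins are bound to the membrane and signal by contact with Eph receptor tyrosine kinases, semaphorins signal through plexins with neuropilins as co-receptors for secreted forms, slits repel through ROBO receptors, and netrins attract through DCC or repel through UNC5 receptors. In the developing cerebellum, where medulloblastoma arises, these systems guide the migration of granule cell precursors and their axons.

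The labels of the deposited values conflict, which bears on every comparison. None (0) of the 12 columns of the normalised table ranked its probes as the scanner file of the same sample did, while each ranked as the scanner file of another sample, with a Spearman correlation of at least 0.999975. Which labels are right cannot be told apart here. The scanner files were used under their own labels, and the table under its own labels is given where it changes a result. By scan time and position in the file headers, the arrays also fall on 3 slides of 4. All 3 P1 ACM arrays lie on slide 1 with P3 ACM replicate 1, P3 ACM replicates 2 and 3 lie on slide 2 with P1 DMEM replicates 1 and 2, and P1 DMEM replicate 3 lies on slide 3 with all 3 P3 DMEM arrays. The ACM and DMEM arrays of a passage never share a slide, so at either passage no slide gives a comparison of media within it.

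The median intensity of an array ranged from 265 to 606, and 74.3% to 94.6% of its probes were well above background, the scanner software's call that a spot outshines its surroundings. Of 10 Daoy and medulloblastoma markers 7 were well above background on all 12 arrays, among them NES, VIM, GLI1, GLI2 and PTCH1, while ATOH1 was on 2 arrays and PROM1 on 5. Of 10 astrocyte markers 9 were on the array and 6 were well above background on all 12, and GFAP, the astrocyte intermediate filament, was on 7 arrays. The summed level of the astrocyte markers, as a multiple of an array's 75th percentile, spanned 4.37 to 5.91 in ACM and 5.41 to 6.20 in DMEM at P1, and at P3 spanned 3.72 to 6.09 in ACM and 4.35 to 5.31 in DMEM. The groups overlapped, and the part of these markers in the results was not tested. Past the thresholds used below at P1 were 2 higher and 1 lower of 8 kept astrocyte markers and 2 higher of 6 neuron markers. So were 1 higher of 5 microglia or leukocyte markers and 3 higher of 6 endothelial markers. By the same rule 13.5% of all genes were higher and 0.0989% lower. At P3 they were 1 lower astrocyte, 1 lower neuron, 1 higher microglia or leukocyte and 1 higher endothelial marker, beside 0.91% of all genes higher and 0.819% lower. None (0) of the 9 kept Daoy markers passed at either passage.

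Most of the guidance genes gave a signal. A probe was kept when it was well above background on all 3 arrays of at least 1 group, and 63 of the 68 members were kept, of 25270 genes in all. All 34 ligands were kept, namely 8 ephrins, 20 semaphorins, 3 slits and 3 netrins. Of the 34 receptors 29 were kept, namely 11 of 14 Eph receptors, 8 of 9 plexins, both neuropilins (2 of 2), 4 of 4 ROBO receptors and 4 of 5 netrin receptors. The 5 that were not kept were DCC, the attractive netrin receptor, EPHA1, EPHA6, EPHA7 and PLXNC1. EPHA6 was well above background on none (0) of the arrays, DCC and EPHA1 on 1 array each, EPHA7 on 3 and PLXNC1 on 4. Of the 63 kept members 50 were well above background on all 12 arrays. Detection of members differed by slide, with 63 to 67 members well above background on an array of slide 1, 50 to 57 on slide 2 and 62 or 63 on slide 3.

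All values below are log2 levels of a gene's brightest kept probe relative to its array's 75th percentile (0), or differences between such levels, and levels of different genes are not compared. A gene was counted as past the thresholds when the media differed by more than 2-fold with an unadjusted p of 0.05 or less in limma, the thresholds of the study. Adjusted p-values are Benjamini-Hochberg values over all kept probes.

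At P1, SLIT1, ROBO2, SEMA6A, SEMA3G and SEMA6D were higher in ACM past the thresholds, and none (0) of the 63 members was lower. Of all 25270 genes 13.5% were higher and 0.0989% lower by the same rule, so 5 of 63 members (7.94%) is below the share of all genes. No adjusted p was 0.05 or less among the members, where the smallest was 0.103, or among all genes (0%). An unadjusted p of 0.05 or less was found for 10 of 63 members, beside 6064 of 25270 genes. In a fit of the 6 P1 arrays alone, with 3 on slide 1 and the others on slides 2 and 3, 9 members and 4843 genes had an adjusted p of 0.05 or less, and 10 members and 5181 genes did when P3 ACM replicate 1, an array outside the P1 comparison that enters the shared estimate of spread, was left out. In all, the difference was positive for 42 members and negative for 21, and its median was 0.19, beside 0.15 over all genes. After quantile normalization the median over all genes moved to 0.0006 and that of the members to 0.03, and the members divided into 32 higher and 31 lower. Leaving out single arrays gave 3 members past the thresholds without P1 ACM replicate 2 or 3, 3 without P1 DMEM replicate 1, of which EFNA1 was lower in ACM by -1.15, and 8 without P1 DMEM replicate 3. Of all 25270 genes 2822, 3077, 2377 and 3978 were then higher past the thresholds, and 26, 50, 43 and 41 lower, in the same order of arrays. The plot of differences by family shows the values at both passages.

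**Figure D1:**
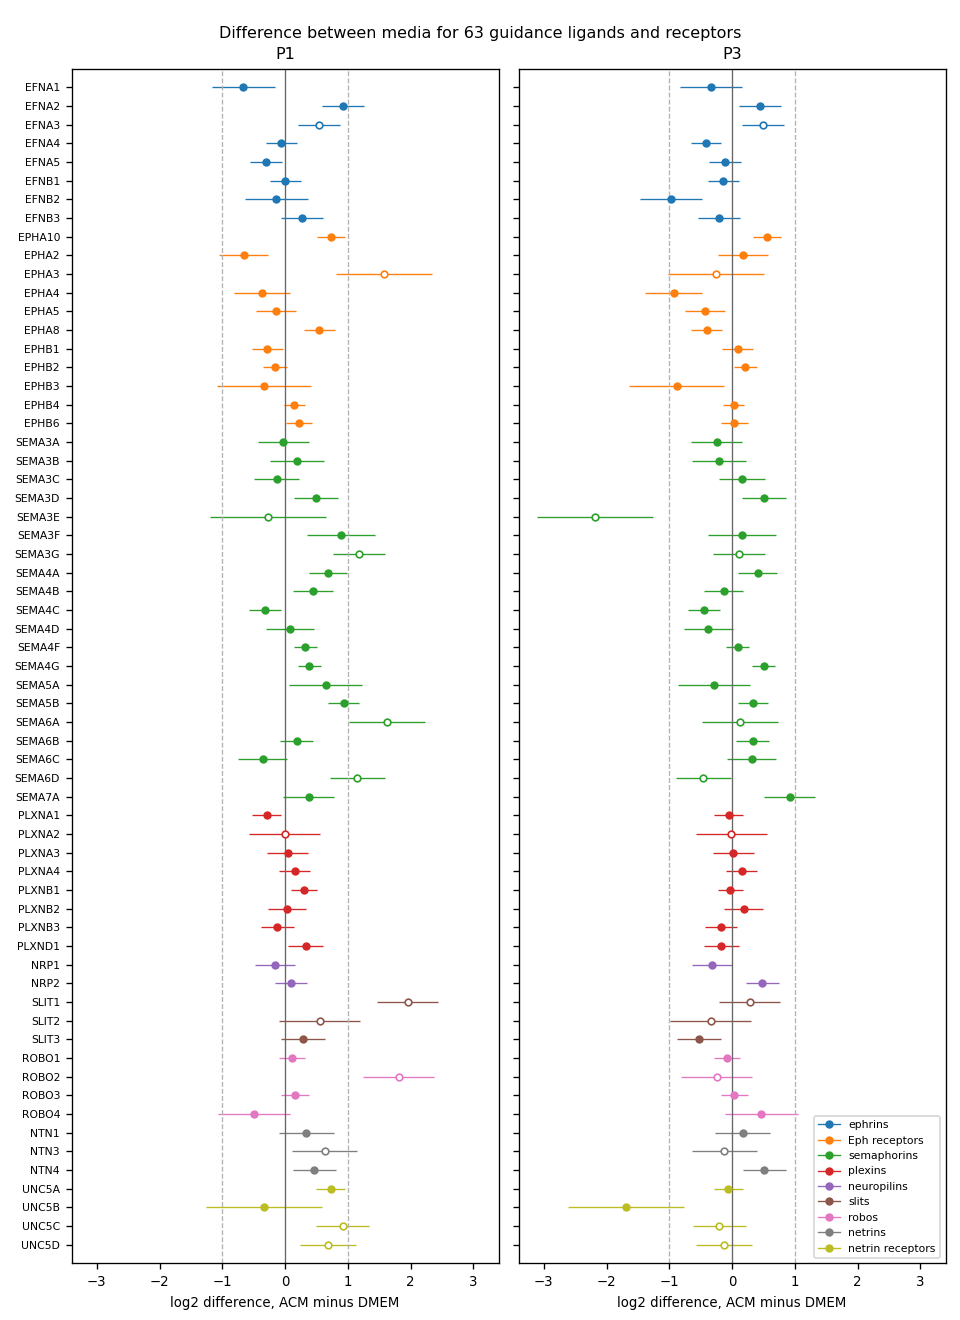
Log2 difference between ACM and DMEM for the 63 kept guidance genes at P1 (left) and P3 (right), with the standard error as bars, coloured by family. Dashed lines mark 2-fold, and open points mark the 13 genes not well above background on all 12 arrays, among which are all 6 members past the thresholds.

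SLIT1, a secreted repellent, was at -5.30, -5.18 and -5.09 in P1 ACM and at -7.20, -7.24 and -7.00 in P1 DMEM. The ACM arrays were all above the DMEM arrays, a difference of 1.96 with a standard error of 0.48 (adjusted p = 0.103). SLIT1 was well above background on none (0) of the P1 DMEM arrays, so its level there is a bound. With each of those arrays raised to at least its lowest signal well above background, the group means were 2.02-fold apart. That value holds for this scaling without slide only. The difference was 0.86 after quantile normalization, and its sign turned with slide as a block. At P3 SLIT1 was at -5.13, -7.50 and -7.30 in ACM and at -6.98, -7.07 and -6.73 in DMEM, so 1 ACM array was at the P1 ACM level and both others were below all P3 DMEM arrays. The array that stood above was replicate 1, the P3 ACM array on the slide of the P1 ACM arrays.

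ROBO2, a receptor for slits, was at -3.84, -3.67 and -4.35 in P1 ACM and at -6.40, -5.42 and -5.47 in P1 DMEM. These groups did not overlap, and the difference was 1.81 with a standard error of 0.56 (adjusted p = 0.105). In P3 ACM replicate 1 was at -3.95, and replicates 2 and 3 were at -6.36 and -5.62, while P3 DMEM lay at -5.80, -4.38 and -5.01. ROBO2 was well above background on 2 of 3 arrays in P1 DMEM. The other members of this ligand and receptor pair of families did not pass the thresholds at P1, with differences of 0.55 for SLIT2, 0.29 for SLIT3, 0.11 for ROBO1, 0.16 for ROBO3 and -0.50 for ROBO4, the endothelial member.

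SEMA6A, a transmembrane semaphorin that takes part in granule cell migration, was at -6.05, -5.95 and -4.68 in P1 ACM and at -7.45, -7.90 and -6.19 in P1 DMEM. The difference was 1.62 with a standard error of 0.61 (adjusted p = 0.141), and 1 of 3 P1 DMEM arrays was well above background. SEMA6D, another transmembrane semaphorin, was at -5.82, -5.75 and -5.72 in P1 ACM and at -7.61, -6.55 and -6.57 in P1 DMEM, a difference of 1.15 with a standard error of 0.44 (adjusted p = 0.147). SEMA3G, a secreted class 3 semaphorin, was at -3.81, -3.52 and -4.66 in P1 ACM and at -5.38, -5.20 and -4.92 in P1 DMEM, a difference of 1.17 with a standard error of 0.41 (adjusted p = 0.126). None of these 3 semaphorins overlapped between the media. SEMA3G was well above background on 2 of 3 and SEMA6D on 1 of 3 P1 DMEM arrays. The plot of the 6 members past the thresholds shows each array.

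**Figure D2:**
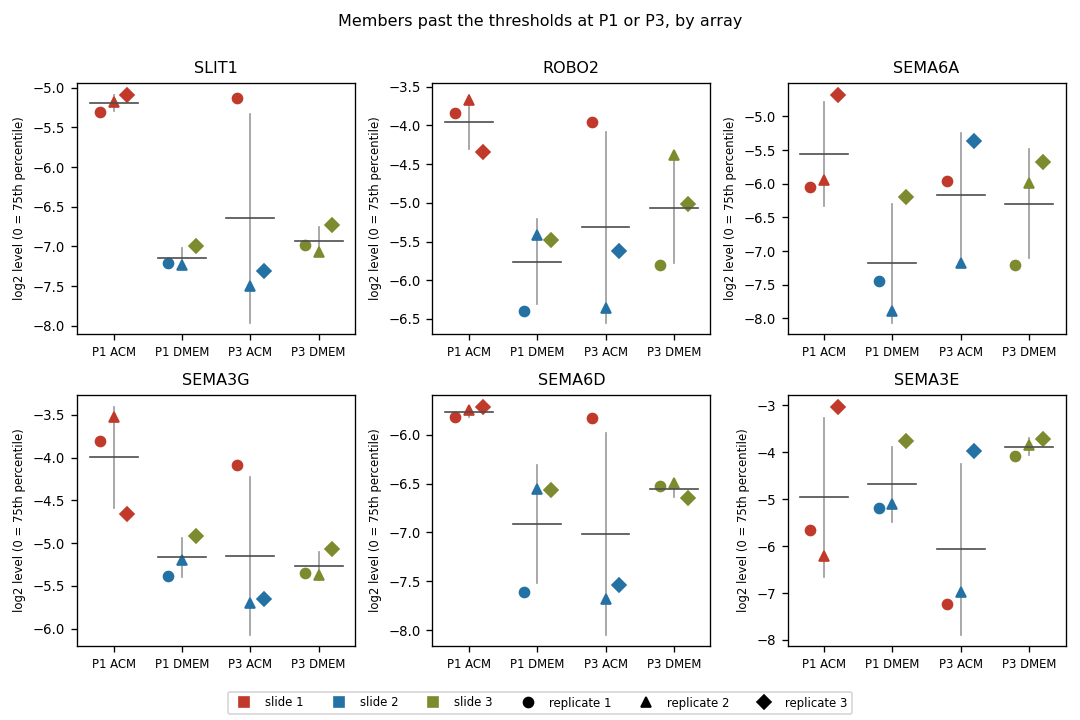
Log2 levels, relative to that array's 75th percentile, of the 5 members past the thresholds at P1 and of SEMA3E, past them at P3, on each array, with group means (horizontal lines) and SD (vertical lines, n = 3). Colours give the slide and symbols the replicate, and for SLIT1, ROBO2, SEMA3G and SEMA6D the slide 1 array of P3 ACM lies at the level of P1 ACM.

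These 5 members share a low signal. All 5 were in the dimmest of 3 equal bins of the kept genes by mean level, and none was well above background on all 12 arrays. SLIT1 and SEMA6A passed the filter on dim probes only through P1 ACM, the group in which they were higher. The filter therefore favours their being called higher at P1. In the dimmest bin the median difference at P1 was 0.83 over all genes and 0.79 over its 20 members, in the middle bin 0.14 and 0.17 over 26 members, and in the brightest bin -0.08 and -0.06 over 17 members. After quantile normalization the medians of the dimmest bin were 0.12 over all genes and 0.03 over members. Of the 50 members well above background on every array none (0) passed the thresholds at P1 in either direction, beside 4.39% of all such genes higher and 0.124% lower. In a limma fit of such genes alone 6 of the 50 members had an unadjusted p of 0.05 or less, beside 3398 of 20174 genes. With quantile normalization ROBO2 alone passed, with a difference of 1.09, beside 3.58% of all genes higher and 0.91% lower.

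The slide moved with these values. In P3 ACM the only slide 1 array is replicate 1, so slide and replicate number cannot be told apart there. Within P3 ACM the array on slide 1 was above the mean of both arrays on slide 2 by 2.27 for SLIT1, 2.04 for ROBO2, 1.59 for SEMA3G, 1.78 for SEMA6D and 0.31 for SEMA6A. Of the 63 members 11 (17.5%) were over 2-fold higher on that array, beside 22.8% of all genes. The largest such difference of a member was 3.14 for EPHA3, which did not pass the thresholds. Across the 63 members the difference between slides within P3 ACM and the difference between media at P1, which share no array but both set slide 1 against other slides, had a Pearson correlation of 0.694 (Spearman 0.63), and across all genes 0.783 (Spearman 0.723), given as a description since genes of the same arrays are not independent. With slide as a block the P1 differences were -0.24 for SLIT1, -0.08 for ROBO2, -0.30 for SEMA3G and -0.46 for SEMA6D, and 1.80 for SEMA6A, and the member past the thresholds was PLXND1, the plexin that binds SEMA3E, at 1.15. In that fit 155 of all 25270 genes were higher past the thresholds and 376 lower. Within slide 2, which holds P3 ACM and P1 DMEM, ACM minus DMEM was -0.18 for SLIT1, -0.08 for ROBO2, -0.39 for SEMA3G, -0.53 for SEMA6D and 1.40 for SEMA6A, a comparison that also sets P3 against P1. Under the table's own labels the P1 differences were -0.22 for ROBO2, -0.19 for SEMA3G, -0.12 for SEMA6D and 0.52 for SEMA6A, and SLIT1 was not analysed there.

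**Figure D3:**
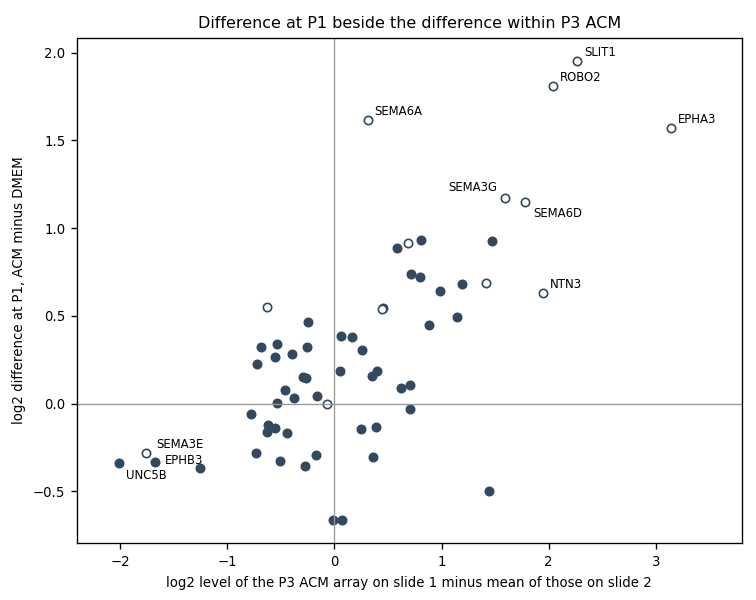
Difference at P1, ACM minus DMEM (vertical axis, log2), against the level of the P3 ACM array on slide 1 minus the mean of both P3 ACM arrays on slide 2 (horizontal axis, log2), 1 point for each of the 63 members, open where not well above background on all arrays. SLIT1, ROBO2, SEMA3G and SEMA6D are high on both axes, as is EPHA3, not past the thresholds, at 3.14 on the horizontal and 1.57 on the vertical axis. SEMA6A is high on the vertical axis with 0.31 on the horizontal axis, and UNC5B, EPHB3 and SEMA3E are lowest on the horizontal axis. On the horizontal axis slide and replicate number cannot be told apart, since the slide 1 array is replicate 1.

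Without regard to size, all P1 ACM arrays were above all P1 DMEM arrays in 16 of the 63 members, beside 30.7% of all genes, and below them in 3 members, beside 5.39%. The 3 lower members were EFNA5, a GPI-anchored ephrin, EPHB2, a receptor tyrosine kinase for B class ephrins, and PLXNA1, a receptor for class 3 semaphorins, with differences of -0.30, -0.16 and -0.29. The other kept probes of EPHB2 gave 0.06 and 0.12, so its direction depends on the probe. No member with 3 arrays on either side can reach an exact permutation p below 0.1. Among members well above background on every array, the largest positive differences at P1 were those of SEMA5B, EFNA2 and SEMA3F. SEMA5B, a transmembrane semaphorin, was at -3.01, -2.90 and -2.80 in P1 ACM and at -3.80, -3.75 and -3.95 in P1 DMEM, a difference of 0.93 with a standard error of 0.24 (adjusted p = 0.103). Its arrays were closely grouped within each medium, with an SD of 0.11 in ACM and 0.10 in DMEM (n = 3), and with slide as a block its difference was 0.06.

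EFNA2, an ephrin of the A class, was at -3.15 ± 0.19 (SD, n = 3) in P1 ACM and -4.07 ± 0.15 in P1 DMEM, a difference of 0.92 (adjusted p = 0.133) that became -0.51 with slide as a block. SEMA3F, a secreted ligand of neuropilin 2, differed by 0.89 (adjusted p = 0.382) with overlapping arrays. The largest negative differences were -0.66 for EFNA1, an A class ephrin (adjusted p = 0.505), -0.66 for EPHA2, its receptor (adjusted p = 0.374), and -0.50 for ROBO4 (adjusted p = 0.712), none past the thresholds. EFNA1 lay between -0.16 and 0.44 in P1 ACM, while P1 DMEM replicate 3 at 2.06 stood above the other DMEM arrays at -0.18 and 0.47. Eph receptors with 3 ACM arrays above the DMEM arrays included EPHA10, a kinase-deficient receptor, at 0.74 (adjusted p = 0.103), EPHA3 at 1.57 (adjusted p = 0.254) and EPHB6, also kinase-deficient, at 0.22 (adjusted p = 0.626). EPHA3 was over 2-fold apart but was well above background on 1 of 3 P1 DMEM arrays. With slide as a block EPHA3 was at -1.02, EPHA10 at -0.05 and EPHB6 at 0.87.

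Of the netrin receptors, UNC5A was higher by 0.72 (adjusted p = 0.108), UNC5C by 0.92 (adjusted p = 0.226) and UNC5D by 0.69 (adjusted p = 0.419), with no overlap between the media, and UNC5B was at -0.34 (adjusted p = 0.896). UNC5C was well above background on 2 of 3 and UNC5D on 1 of 3 P1 DMEM arrays. With quantile normalization the difference was 0.39 for UNC5A and -0.09 for UNC5C. UNC5D was the member whose kept probes were furthest apart at P1, since its other probe gave 1.87. With quantile normalization the difference of its brighter probe was -0.39. PLXNA4, next in this respect, had 3 kept probes with differences from -0.28 to 0.60, so its direction depends on the probe, and its brightest probe turned from 0.15 to -0.27 with quantile normalization. The netrins differed by 0.34 for NTN1, 0.63 for NTN3 and 0.47 for NTN4 with adjusted p-values of at least 0.499.

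At P3 the difference was positive for 29 members and negative for 34, and its median was -0.05, beside 0.003 over all genes. None (0) was higher past the thresholds, beside 0.91% of all genes, and 1 was lower, beside 0.819%. The smallest adjusted p of a member was 0.672, and none of all genes had an adjusted p of 0.05 or less (0%). An unadjusted p of 0.05 or less was found for 4 members, beside 1838 of 25270 genes. Leaving out single arrays gave 0 members past the thresholds without P3 ACM replicate 2 or P3 DMEM replicate 2, 2 without P3 ACM replicate 1 or P3 DMEM replicate 1, and 7 without P3 ACM replicate 3. Of all 25270 genes 378, 195, 122, 308 and 883 were then higher past the thresholds, and 108, 102, 916, 307 and 369 lower, in the same order of arrays. All ACM arrays were above all DMEM arrays for EPHA10, SEMA4G and SEMA7A, beside 4.75% of all genes, and below them for EPHA8, beside 5.03%.

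The lower member was SEMA3E, a secreted semaphorin that binds PLXND1. It was at -7.24, -6.99 and -3.98 in P3 ACM and at -4.08, -3.85 and -3.73 in P3 DMEM, a difference of -2.19 with a standard error of 0.92 (adjusted p = 0.702). The media overlapped, because ACM replicate 3 lay among the DMEM arrays while replicates 1 and 2 were far below them. In P1 ACM replicate 3 likewise stood at -3.03, above replicates 1 and 2 at -5.65 and -6.21. SEMA3E was well above background on 1 of 3 P3 ACM arrays, and its difference was -0.22 with slide as a block and 1.02 under the table's own labels.

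UNC5B, a repulsive netrin receptor, was at -0.39, 0.80 and 2.44 in P3 ACM and at 1.66, 2.78 and 3.48 in P3 DMEM. The difference of -1.69, the lowest at P3 among members well above background on all arrays, did not pass the thresholds (standard error 0.92, adjusted p = 0.707), and it was 1.57 with slide as a block. EFNB2, a transmembrane ephrin, was lower by -0.97 (adjusted p = 0.703), and EPHA4, an Eph receptor that binds both ephrin classes, by -0.93 (adjusted p = 0.702). SEMA7A, a GPI-anchored semaphorin, was at -0.90, -0.68 and -1.45 in P3 ACM and at -1.59, -2.20 and -2.00 in P3 DMEM, so all ACM arrays were above, by 0.92 (adjusted p = 0.702). EPHA10 was higher by 0.56 (adjusted p = 0.69), SEMA4G by 0.50 (adjusted p = 0.672) and NTN4, a secreted netrin-like ligand, by 0.51 (adjusted p = 0.743). The other kept probes of EPHA10 gave -0.19 and -0.01 at P3, so its direction there depends on the probe. Under the table's own labels the sign turned for EFNB2 (0.33), EPHA4 (1.01), SEMA7A (-0.36), EPHA10 (-0.56) and NTN4 (-0.38).

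The difference between passages in the effect of ACM was tested with an interaction term. Of the 63 members 5 had an unadjusted p of 0.05 or less, beside 8.24% of all genes, with a smallest adjusted p of 0.626. They were EPHA8, an Eph receptor (P3 effect minus P1 effect -0.95, adjusted p = 0.626), SEMA6D (-1.61), ROBO2 (-2.06), SLIT1 (-1.68) and UNC5A (-0.79, adjusted p = 0.628). In each the effect at P3 was the lower, as in most genes past the thresholds for this term. Of all genes 1720 were lower and 13 higher past them, and the median was -0.17. With slide as a block 4 members had an unadjusted p of 0.05 or less, beside 979 of 25270 genes. In that fit 3 members were higher past the thresholds and none (0) lower, beside 550 genes higher and 165 lower. At P1, EPHA8 was at -4.38, -4.60 and -3.93 in ACM and at -4.94, -5.04 and -4.57 in DMEM, and at P3 it was at -4.53, -5.36 and -4.61 in ACM and at -4.43, -4.42 and -4.43 in DMEM. Its ACM arrays overlapped the DMEM arrays at P1, in which it differed by 0.55, and lay just below them at P3, in which it differed by -0.41. Leaving out P3 ACM replicate 1, the array on slide 1, raised the count from 5 to 13 members, of which 7, and 4121 of all genes, then had an adjusted p of 0.05 or less. Without that array 6136 of 25270 genes had an unadjusted p of 0.05 or less. The count of members was 1 without P3 ACM replicate 2 or P1 DMEM replicate 1, beside 965 and 1140 genes. It was 2 without P1 ACM replicate 2, beside 1466 genes, and 3 without P1 DMEM replicate 2 or P3 DMEM replicate 3, beside 1346 and 1564.

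Between passages in DMEM alone 1 member passed the thresholds. EPHA2 was at -1.55, -0.79 and -0.61 in P1 DMEM and at -2.11, -2.49 and -1.47 in P3 DMEM, a difference of -1.04 with a standard error of 0.40 (adjusted p = 0.571), and the lowest P1 array lay below the highest P3 array. Of all genes 1.14% were higher and 0.582% lower by the same rule. The count ranged from 0 to 3 when single arrays were left out. It was 0 without P1 DMEM replicate 2 or 3 and without P3 DMEM replicate 1 or 2. It was 2 without P3 DMEM replicate 3 and 3 without P1 DMEM replicate 1. Of all genes 139, 796, 533, 121, 293 and 141 were then higher past the thresholds, and 80, 166, 461, 23, 172 and 153 lower, in the same order of arrays.

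For many members the data bound the change instead. The 95% confidence interval of the difference lay within 2-fold in either direction for 26 of 63 members at P1, for 25 at P3 and for 20 at both, intervals that rest on the pooled spread of the fit, on the labels of the scanner files and on a fit without slide. They were not computed for all genes, so these counts have no reference. Of the 8 kept plexins 7 were within these limits at both passages in the fit without slide, but with slide as a block 3 of these 7 passed the thresholds, PLXND1 at P1 (1.15) and PLXNA3 (1.15) and PLXNB2 (1.14) at P3. With slide as a block 155 of all 25270 genes were higher past the thresholds at P1 and 388 at P3. PLXNA1 differed by -0.29 (-0.80 to 0.21) at P1 and by -0.05 (-0.56 to 0.45) at P3, and PLXNB2, a receptor for class 4 semaphorins, by 0.03 (-0.65 to 0.71) and 0.18 (-0.50 to 0.86), where its P3 value with slide as a block lies outside the interval. Among the Eph receptors, EPHB2 and EPHB4 had intervals between -0.58 and 0.62 at both passages. No slit, netrin or neuropilin and no netrin receptor met the limits at both passages.

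The replicate number held more of the variance than the 4 groups did in 29 of the 63 members, beside 26.7% of all genes, a pattern chosen after the values were seen. The share of the variance over the 12 arrays that lay between the 3 replicate numbers had a median of 30.4% over the members and 15.1% over all genes. It exceeded 50% in 18 of 63 members (28.6%), beside 10.2% of all genes, and after quantile normalization in 20 members (31.7%), beside 12% of all genes. These 18 were 5 plexins, 6 semaphorins, EPHB1, EPHB3, EFNB1, EFNB3, NTN1, SLIT2 and UNC5B. In 14 of them replicate 3 was above replicate 1 in all 4 groups, and in 3 it was below in all 4, namely SEMA5A, SEMA3D and SEMA3C. The 18 were picked by the replicate share of these same values, so this order is part of the choice and not a further result. It was not counted over all genes. The labels do not say what the replicate number stands for. These shares and counts rest on the labels of the scanner files. They were not computed under the table's own labels, where replicate numbers differ as well.

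For replicates 1, 2 and 3, NTN1, the founding netrin, was at -1.28, -0.85 and -0.54 in ACM and at -2.11, -1.07 and -0.51 in DMEM at P1, and at -1.23, -0.90 and -0.49 in ACM and at -1.76, -1.04 and -0.34 in DMEM at P3. Under the labels of the scanner files, replicate 1 was the lowest and replicate 3 the highest in each group. The replicate number held 81.5% of the variance against 7.81% for the 4 groups. For UNC5B, whose SD over the 12 arrays was 1.30, the shares were 66.6% and 26.8%, with replicate 3 between 2.44 and 3.48 and replicate 1 between -0.39 and 1.66 in the 4 groups. EPHB3, a receptor for B class ephrins, followed UNC5B across the arrays with a Pearson correlation of 0.859 (12 arrays that share replicate numbers and slides, a description). Both genes were picked by their replicate share, so this correlation follows in part from the choice. SEMA5A, a transmembrane semaphorin, ran the other way, with replicate 1 at -1.41, -1.91, -1.70 and -1.21 in P1 ACM, P1 DMEM, P3 ACM and P3 DMEM and replicate 3 at -2.71, -3.57, -2.35 and -2.85.

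**Figure D4:**
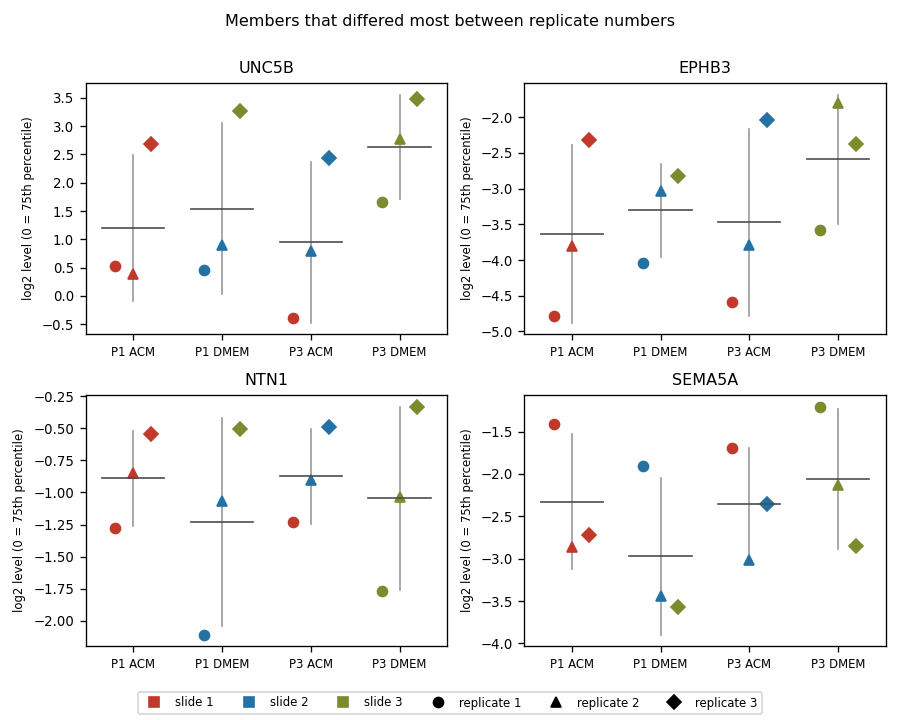
Log2 levels of UNC5B, EPHB3, NTN1 and SEMA5A on each array, relative to that array's 75th percentile, with group means (horizontal lines) and SD (vertical lines, n = 3). Symbols give the replicate by the labels of the scanner files and colours the slide. Replicate 3 (diamonds) lies above replicate 1 (circles) in all 4 groups for UNC5B, EPHB3 and NTN1, and below it for SEMA5A.

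The promoter sequences of the 3 most variable of these 18 genes with an entry in the RefSeq promoter table (GRCh38.p14) are shown because EPHB3 and SLIT2 were higher and SEMA5A lower in replicate 3 than in replicate 1 in every group. Each is the 250 bases before the transcription start, 5′ to 3′, with the GC box letters GGGCGG, or CCGCCC on the other strand, in capitals where runs may overlap.
EPHB3, chr3:184561535-184561784, plus strand: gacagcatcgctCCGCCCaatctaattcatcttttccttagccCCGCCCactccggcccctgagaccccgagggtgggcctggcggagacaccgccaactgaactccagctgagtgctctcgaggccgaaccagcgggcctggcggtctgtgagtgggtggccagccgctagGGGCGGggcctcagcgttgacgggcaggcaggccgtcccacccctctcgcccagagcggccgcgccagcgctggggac
SLIT2, chr4:20251655-20251904, plus strand: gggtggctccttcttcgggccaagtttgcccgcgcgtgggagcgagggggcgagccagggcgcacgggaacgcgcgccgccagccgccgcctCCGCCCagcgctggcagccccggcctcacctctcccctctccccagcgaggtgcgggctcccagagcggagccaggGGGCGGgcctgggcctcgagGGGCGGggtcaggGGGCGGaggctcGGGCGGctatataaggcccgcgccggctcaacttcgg
SEMA5A, chr5:9546076-9546325, minus strand: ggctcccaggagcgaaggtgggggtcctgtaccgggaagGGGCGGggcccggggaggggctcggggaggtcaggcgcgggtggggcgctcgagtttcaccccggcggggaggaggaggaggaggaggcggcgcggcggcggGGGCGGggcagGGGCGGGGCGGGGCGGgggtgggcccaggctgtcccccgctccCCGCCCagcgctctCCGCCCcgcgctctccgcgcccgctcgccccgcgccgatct

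These windows hold 3 GC boxes in EPHB3, 5 in SLIT2 and 7 in SEMA5A, and their GC content is 70.0%, 77.2% and 82.0%. Of the 58 members with an entry 42 (72.4%) hold at least 1 GC box on either strand, beside 42.6% of 35116 promoters of the same length in the table, and the letters TATAAA are in 1.72% and 10.7%. The GC content of the members' windows had a median of 65.6%, beside 58.0%. Base composition and GC box count move together, and a match is a description of letters, not of a site in use. The 3 genes that differ in direction by replicate all hold the GC box letters.

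Effectors and co-factors of guidance, such as the cytoskeletal proteins that act downstream of the receptors, were read from a list of 50 genes, of which 49 were on the array and kept. At P1 the difference was positive for 20 and negative for 29 of them, its median was -0.03, and 4 of 49 were higher past the thresholds and none (0) lower, beside 13.5% and 0.0989% of all genes. These were MICAL2, an actin-oxidising enzyme of the family that acts downstream of plexins, at 2.10 (adjusted p = 0.123), FLRT3, a ligand of UNC5 receptors and co-receptor of ROBO1, at 1.72 (adjusted p = 0.176), SRGAP3, a GTPase-activating protein that binds ROBO receptors, at 1.69 (adjusted p = 0.146), and ARHGEF12, an exchange factor bound by B class plexins, at 1.15 (adjusted p = 0.103). With slide as a block they were at -0.53, 0.86, 0.10 and 0.20. FLRT3 passed the filter on dim probes only through P1 ACM, the group in which it was higher. At P3 the difference was positive for 25 and negative for 24 of the 49 with a median of 0.001, and DPYSL3, a cytosolic mediator of semaphorin signalling, was the 1 lower past the thresholds, beside 0.819% of all genes, at -1.10 (adjusted p = 0.612).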

How the data were processed

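RNA of Daoy cells was measured on 12 single-colour Agilent arrays, 3 for each medium and passage, grouped by the labels. The authors deposited scanner files, whose intensity values are those of Agilent Feature Extraction 11.0.1.1 per the submitters' processing notes, background-corrected and without normalization between arrays. A deposited table gives log2 values for 30569 probes, and these matched quantile-normalized log2 intensity (median absolute gap 0.00071) when each column was set beside the array it ranks as.

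Here 1377 control spots and outlier-flagged spots were left out, spots of a probe were averaged, and log2 intensity minus the 75th percentile of each array was used. Symbols came from matching RefSeq accessions (25771 of 34127 probes, GRCh38.p14, for names and promoters). Probes well above background on all 3 arrays of a group were kept (31073). All 12 arrays entered 1 fit with 4 group means and 8 residual degrees of freedom (limma 3.58.1 with eBayes, R 4.3.3, two-sided, Benjamini-Hochberg adjustment), checked on simulated data. The number of arrays limits the precision.

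The members, the list of effectors and the marker lists (astrocyte, neuron, microglia and leukocyte, endothelial, Daoy and medulloblastoma) were chosen with earlier results of these data known. Genes named were those past the thresholds, the 3 highest and 3 lowest differences at each passage among members well above background on all arrays, the 3 smallest p-values for the difference between passages and the 2 members whose probes were furthest apart, and others named were chosen after their values were seen. At P1 the deviations of arrays with the same replicate number correlated at 0.187 to 0.425, which met the criterion for a pairing (over 0.1 in every pair), and at P3 at -0.191 to 0.23, which did not. The fit above holds no replicate term, and the replicate number as a block was an alternative. Alternatives tried were normexp (offset 50), quantile normalization, the table under its own labels, the filter on dim probes, the arrays in the fit, eBayes with trend, the methods' t-test, replicate and slide as blocks, the mean of a gene's probes and leaving out each array.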

Additional observations from a re-analysis of the deposited data

How the results depend on the processing

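Each count here is over all members in a setting and need not hold the same genes. Beside the 5 members past the thresholds at P1, the count was 1 after quantile normalization and 0 after normexp and quantile normalization. It was 1 (EPHA3, lower, chosen after its value was seen) in the table under its own labels. It was 0 for genes well above background on all arrays, with or without quantile normalization. It was 1 (PLXND1) with slide as a block, and 1 with slide as a random block or as a block after quantile normalization. With the mean of a gene's probes it was 9, and without single arrays 3 to 8. For the 1 member at P3 it was 0 after quantile normalization, after normexp, for genes well above background on all arrays, with or without quantile normalization, in the methods' t-test and with slide as a random block, 4 without the filter on dim probes, 2 (SEMA3E and UNC5B) with the replicate block, 4 with slide as a block, with or without quantile normalization, and 0 to 7 without single arrays. For the 5 members with p of 0.05 or less for the difference between passages it was 2 after quantile normalization, 0 after normexp and 2 in the table. It was 2 for genes well above background on all arrays and 1 of these after quantile normalization. With the replicate block it was 9, and with slide as a block, with or without quantile normalization, 4. It was 0 with slide as a random block and 1 to 13 without single arrays. For P3 against P1 in DMEM it was 0 after quantile normalization, after normexp, in the table, in the methods' t-test and for genes well above background on all arrays after quantile normalization, 2 without the filter, 2 with the replicate block, 3 with slide as a block, 2 with slide as a block after quantile normalization and 0 to 3 without single arrays. Counts over all genes moved as well. At P1 905 genes were higher and 230 lower after quantile normalization, and 3502 and 21 with the mean of a gene's probes. With slide as a block they were 155 and 376 at P1 and 388 and 295 at P3. Without the filter 993 and 222 of 27708 genes were higher and lower at P3. The replicate block left the P1 count at 5. At P1, adjusted p-values of 0.05 or less were found for none (0) of the members in the fit of all 12 arrays, where 10 members (6064 genes) had an unadjusted p of 0.05 or less, for 9 members (4843 genes) in a fit of the 6 P1 arrays alone, for 10 members (5181 genes) without P3 ACM replicate 1 and for 3 members (2093 genes) in the methods' t-test.

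Signs turned as follows, and the cause was not tested. In the table under its own labels the P1 differences were -0.22 for ROBO2, -0.19 for SEMA3G, -0.12 for SEMA6D, 0.045 for EPHA2, -0.20 for EFNA2, -0.21 for SEMA3F and -0.25 for UNC5D, the P3 differences 1.02 for SEMA3E, 1.01 for UNC5B, 0.33 for EFNB2, 1.01 for EPHA4, -0.36 for SEMA7A, -0.56 for EPHA10 and -0.38 for NTN4, and the difference between passages 0.19 for EPHA8. With slide as a block the P1 differences were -0.24 for SLIT1, -0.083 for ROBO2, -0.30 for SEMA3G, -0.46 for SEMA6D, -0.51 for EFNA2 and -0.43 for UNC5D, and the P3 difference 1.57 for UNC5B. With slide as a block after quantile normalization they were -0.062 for SLIT1, -0.10 for SEMA3G, -0.16 for SEMA6D, -0.43 for EFNA2, -0.22 for UNC5D and 1.68 for UNC5B. After quantile normalization UNC5D was at -0.39 and PLXNA4 at -0.27, also with all arrays well above background, after normexp they were at -0.14 and -0.22, and PLXNA4 was at -0.049 to 0.36 without single arrays, lowest without P1 DMEM replicate 1. The fit of slide as a block after quantile normalization and quantile normalization with all arrays well above background were added after seeing the data. Differences of the dimmest members are limited by background, and with 3 arrays a group a difference under 2-fold was often smaller than the spread between arrays.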
